A study of Drosophila melanogaster with 3 samples.

Results

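Shared promoter summits are positions where the strongest point of a FoxP-bound region lies within 500 bp of annotated transcription starts of at least 2 protein-coding genes. The window alone does not assign such a region to 1 gene. Of the 2395 thresholded regions on the 6 chromosome arms of the fly, 1089 had their summit within 500 bp of a protein-coding start. Of these promoter summits, 272 (25%, 95% Wilson interval 22.5 to 27.6) were near starts of several genes and 817 near the start of 1 gene. The 272 shared summits made up 11.4% of the arm regions and involved 548 genes. There were 260 summits with 2 genes, 9 with 3, and 1 each with 4, 5 and 10.

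The regions came from chromatin immunoprecipitation of whole Drosophila melanogaster prepupae with an antibody against GFP. All 3 biological replicates belonged to 1 group, a transgenic line that stably expresses FoxP, also called fd85E, with GFP at its C-terminal end. Males and females were pooled, the age in hours is not known, and no untagged or second group was analysed here. The labels do not say which promoter drives the transgene, and tissues were not separated, so a summit can come from any cells of the animal.

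FoxP is a transcription factor of the forkhead family, related to the FOXP proteins of vertebrates, whose DNA-binding domain recognises short sequences rich in A and T. In the compact fly genome many genes lie back to back on opposite strands, in a divergent layout, with a short stretch between their starts that serves both promoters. Such promoters often belong to genes with basic cellular functions. Neighbouring genes can also be transcribed as a dicistronic unit from a common start, which the annotation lists as an identical start for both.

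The stretch between the starts is shown for 6 divergent pairs, 5′ to 3′ on the plus strand of dm6, from the RefSeq release 6 assembly. Each stretch lies between the 2 starts and holds no annotated exon. The minus-strand gene is named first and its start lies to the left. Capitals mark matches to the loose forkhead consensus RYAAAYA, where R is A or G and Y is C or T, on either strand. The first 4 are among the 20 shared summits with the highest signal values. The last 2 pair a ribosomal protein gene with another gene of a list and were chosen after their values had been seen.
Tcs5–CHMP2B, chr3L:5139396-5139618: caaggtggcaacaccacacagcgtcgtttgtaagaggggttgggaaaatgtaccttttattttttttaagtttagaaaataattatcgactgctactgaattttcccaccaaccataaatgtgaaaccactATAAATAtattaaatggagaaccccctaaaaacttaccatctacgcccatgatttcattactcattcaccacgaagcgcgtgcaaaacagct
Art3–mRpS10, chr3R:15229409-15229664: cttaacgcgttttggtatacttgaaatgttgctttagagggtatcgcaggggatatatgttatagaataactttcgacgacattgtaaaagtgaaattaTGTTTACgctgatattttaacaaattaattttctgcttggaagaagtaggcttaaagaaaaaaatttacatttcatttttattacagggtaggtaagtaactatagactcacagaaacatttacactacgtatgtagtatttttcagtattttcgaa
CG13390–CG17294, chr2L:8376798-8377034: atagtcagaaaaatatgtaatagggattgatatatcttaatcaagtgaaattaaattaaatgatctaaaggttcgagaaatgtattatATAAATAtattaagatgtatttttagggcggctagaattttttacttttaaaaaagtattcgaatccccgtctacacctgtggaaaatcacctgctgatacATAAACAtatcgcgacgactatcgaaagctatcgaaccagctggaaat
Atat–Shc, chr3L:9426759-9427009: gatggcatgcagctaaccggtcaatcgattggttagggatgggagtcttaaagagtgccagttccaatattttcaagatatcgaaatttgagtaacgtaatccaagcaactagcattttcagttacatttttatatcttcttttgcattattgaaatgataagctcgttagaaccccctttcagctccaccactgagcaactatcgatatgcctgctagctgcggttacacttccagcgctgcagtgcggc
Dref–RpL13, chr2L:9967230-9967312: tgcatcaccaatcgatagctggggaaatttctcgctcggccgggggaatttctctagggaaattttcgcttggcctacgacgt
RpS27–Nup37, chr3R:25247515-25247657: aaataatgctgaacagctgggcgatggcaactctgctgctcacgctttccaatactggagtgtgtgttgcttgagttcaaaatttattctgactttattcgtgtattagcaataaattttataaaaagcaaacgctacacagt
The forkhead matches differed in number and place among these stretches. Art3–mRpS10 held 1 loose match, which is also a match to the stricter FOXP-type consensus TRTTTAC, and it began at base 100, with the summit at base 107. CG13390–CG17294 held 2 loose matches, the first at base 89, and its summit was at base 91. Tcs5–CHMP2B held 1, beginning at base 132, with the summit at base 96. Atat–Shc held none, but held the 8-letter DRE, TATCGATA, the element bound by the promoter factor DREF. Neither of the last 2 stretches held a forkhead match.

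The strongest shared summit lay between CenG1A, which encodes a GTPase-activating protein for Arf GTPases, and mRpS23, which encodes a mitochondrial ribosomal protein (chr2L:13835306-13835610). Its deposited signal value, a score without a stated scale, was 1216, and it ranked 29, 4 and 19 in replicates 1, 2 and 3. The summit was 118 bp upstream of the CenG1A start and 374 bp upstream of the mRpS23 start. The second joined Chro, which encodes the interband chromatin protein Chromator, and Ssl1, which encodes a subunit of the general transcription factor TFIIH (chr3L:22878770-22879049, signal value 1056, ranks 32, 5 and 26). These starts were 105 bp apart, and the summit lay 82 bp inside Chro and 187 bp upstream of Ssl1. In both pairs every replicate placed the region among its 32 best.

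The third was at Tcs5, which encodes a kinase of tRNA modification, and CHMP2B, which encodes a protein of the ESCRT-III membrane-remodelling complex (chr3L:5139373-5139609, signal value 796, ranks 49, 26 and 53). CG8360 and CG8372 (chr2L:8212892-8213105) followed with 751 and ranks of 59, 38 and 52. Pdrg1 and Pal1, the latter for an enzyme of peptide amidation, had 743 (ranks 94, 27 and 51). Art3, which encodes an arginine methyltransferase, and mRpS10, a mitochondrial ribosomal protein gene, had 738 (chr3R:15229410-15229641, ranks 70, 35 and 47). In each of these 4 pairs the lowest of the 3 rank numbers, and so the strongest standing, was that of replicate 2.

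The other 14 of the 20 highest signal values ran from 712 at CG8320 and Pex11ab, the latter for a peroxisome division protein, down to 488 at Atat, an alpha-tubulin acetyltransferase gene, and Shc, an adaptor protein gene. They included CG18428 with eIF4EHP, a gene for a cap-binding translation repressor (598), and Lon, a mitochondrial protease gene, with PIG-F, a gene of GPI anchor synthesis (586). CIA30, an assembly factor gene for respiratory complex I, shared a summit with CG7601 (559), and Hrd3, a gene of protein degradation at the endoplasmic reticulum, with PTPMT1, a mitochondrial phosphatase gene (509). All 20 were divergent pairs. In 19 of them every replicate had the region among its best-ranked regions, as many as the thresholded list holds. The exception was CG18428–eIF4EHP, which ranked 95, 85 and 73 but whose narrow 121 bp region was overlapped by such regions of 2 replicates.

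The 3 lowest signal values were 134.7 at Pkc98E, a protein kinase C gene, and Slu7, a splicing factor gene, 135.5 at mal, a gene of molybdenum cofactor activation, and CG11710, and 135.6 at a second summit of CG44286 and CG8788. They lay close to the lowest value of the thresholded regions on the arms, 134.2. Over all 272 members the median was 200.5 (order-statistic 95% interval 192.2 to 216.8), against 196.2 (188.3 to 203.6) for single-gene promoter summits and 188.1 (184.4 to 192.6) for summits away from starts. The intervals of the 2 promoter classes overlap, and as the pooled list carries no replicate error no test was made.

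Shared summits were spread over 5 arms, with 54 members on 2L, 56 on 2R, 69 on 3L, 67 on 3R and 26 on X. Chromosome 4, with 11 close gene pairs, had none, and 0 of 11 is too few pairs to set a useful limit. On X they made up 14.5% of promoter summits, against 25.8% to 28.9% on the 4 large autosomal arms. Close gene pairs, defined as protein-coding genes with starts at most 1000 bp apart, held a shared summit in 5.72% of cases on X and in 8.48% to 12.5% on those arms. The 12.5% is that of 3R, where the 10 genes of 1 summit at the mod(mdg4) locus form 45 of the 117 pairs, and without these pairs 3R had 72 of 893 (8.06%, 95% Wilson interval 6.45 to 10.03).

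Divergent pairs made up most of the members. Of the 260 summits with 2 genes, 232 (89.2%, 95% Wilson interval 84.9 to 92.4) lay at divergent pairs, 16 (6.15%) at genes with an identical start on 1 strand, 11 (4.23%) at genes on opposite strands whose 5′ ends overlap, and 1 at starts in tandem. The annotation itself holds 3520 close pairs, of which 2616 (74.3%) are divergent, 360 share a start, 104 overlap and 440 are in other tandem layouts. Of the close divergent pairs, 260 (9.94%) had a summit within 500 bp of both starts. This count of pairs exceeds that of the 232 divergent summits with 2 genes. The reason is that it includes pairs at summits of 3 or more genes and counts a pair by its closest starts.

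Of pairs overlapping at their 5′ ends, 18 of 104 (17.3%, 95% Wilson interval 11.2 to 25.7) held a shared summit, and of pairs with an identical start 61 of 360 (16.9%). Of the latter, 24 called pairs come from 1 summit at the mod(mdg4) locus, and elsewhere the share was 37 of 336 (11.0%, 8.10 to 14.8). Another 21 pairs of that locus are divergent, and without them the divergent share was 239 of 2595 (9.21%, 8.16 to 10.4), an interval that overlaps the one of identical starts elsewhere. The other summits with 3 or more genes still add several pairs each to these counts. Pairs of 1 summit are not independent, so the intervals treat them as more separate than they are. None of the 440 tandem pairs whose closest starts differ held a shared summit, so that their share could be as high as 0.682%, the limit set by 3 counts of the total, which is used for each count of 0 here. The tandem summit above, at Ufsp1, a protease gene of the UFM1 pathway, and the P450 gene Cyp6u1 (305.8), belongs to a pair whose closest starts have another layout.

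The share of divergent pairs with a summit did not fall steadily with the distance between their starts. It was 13.8% (95% Wilson interval 9.53 to 19.6) for starts up to 50 bp apart, 12.1% for 51 to 100 bp, 9.32% (6.71 to 12.8) for 101 to 200 bp, 14.6% (11.8 to 17.8) for 201 to 300 bp and 14.2% for 301 to 400 bp. Without the pairs of the mod(mdg4) locus the shares for 101 to 200 bp and 301 to 400 bp were 7.49% and 11.1%. It was 8.95% for 401 to 500 bp and 4.09% (2.57 to 6.45) for 501 to 750 bp. Of the 246 pairs 751 to 1000 bp apart none had one, which allows up to 1.22%. The sequence that lies within 500 bp of both starts shrinks with their distance by construction, from about 975 bp in the first class to about 125 bp in the last.

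**Figure D1:**
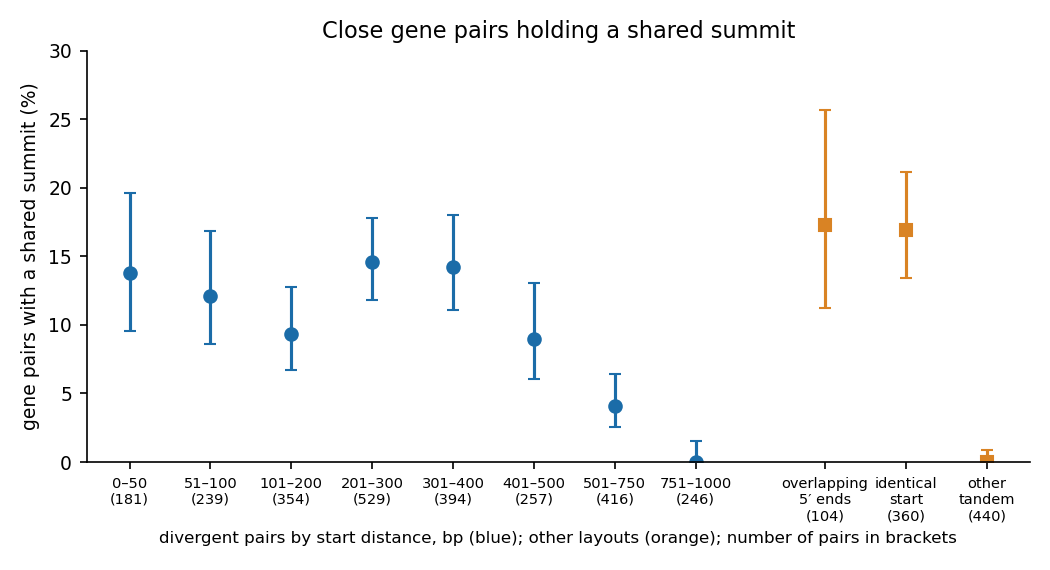
Share of close gene pairs (y axis, percent) that hold a thresholded summit within 500 bp of both starts, for divergent pairs by start distance in bp (circles) and for the other layouts (squares); bars are 95% Wilson intervals and cover counting error only. The highest divergent class is 201 to 300 bp with 14.6%, and pairs 751 to 1000 bp apart and other tandem pairs are at 0.

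Relative to the sequence available, shared promoter sequence held more summits than the rest. The 1.98 Mb within 500 bp of starts of at least 2 genes held 137 summits per Mb, the 13.3 Mb within 500 bp of the start of 1 gene held 61.2, and the other 118.5 Mb held 11.0. Counted by genes, 3.93% of 13945 protein-coding genes had a shared summit, and 9.16% of the 5985 genes with a close start of another gene did. A promoter summit of either kind was found at 12.2% (95% Wilson interval 11.4 to 13.1) of these 5985 genes and at 6.52% (6.00 to 7.08) of the 7960 genes without a close neighbouring start. A summit between close starts counts for each gene, and neighbouring genes are not independent, so these shares are descriptions.

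Within divergent pairs the summit mostly lay between the starts. It did so in 175 of 232 (75.4%, 95% Wilson interval 69.5 to 80.5). The starts were 6 to 670 bp apart, with a median of 283.5 bp, and the summit had a median distance of 65.25 bp from the midpoint, 90 bp from the nearer start and 206 bp from the farther start. Of the 175 summits between the starts, 120 (68.6%, 61.4 to 75) lay between 25% and 75% of the way along the stretch. The rule itself favours such places, since the sequence within 500 bp of both starts is centred on their midpoint. For starts more than 500 bp apart it lies wholly between them. How far the rule accounts for these positions was not tested. Single-gene promoter summits had a median distance of 156 bp from their start and lay upstream of it in 78.7% (75.8 to 81.4).

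The share of summits between the starts was higher at larger distances, where the stretch by construction takes up more of the window. It was 6 of 35 (17.1%) for starts up to 100 bp apart, 17 of 25 (68.0%) at 101 to 200 bp, 60 of 71 (84.5%) at 201 to 300 bp and 92 of 101 (91.1%) beyond. At CG8320 and Pex11ab, 33 bp apart, and at CG11309 and CG7632, 39 bp apart, the summits lay 76 and 83 bp inside the first-named gene. At CIA30 and CG7601, 220 bp apart, the summit lay 107 and 113 bp upstream of the starts, close to the middle. The nearer start was on the plus strand in 122 pairs and on the minus strand in 110.

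**Figure D2:**
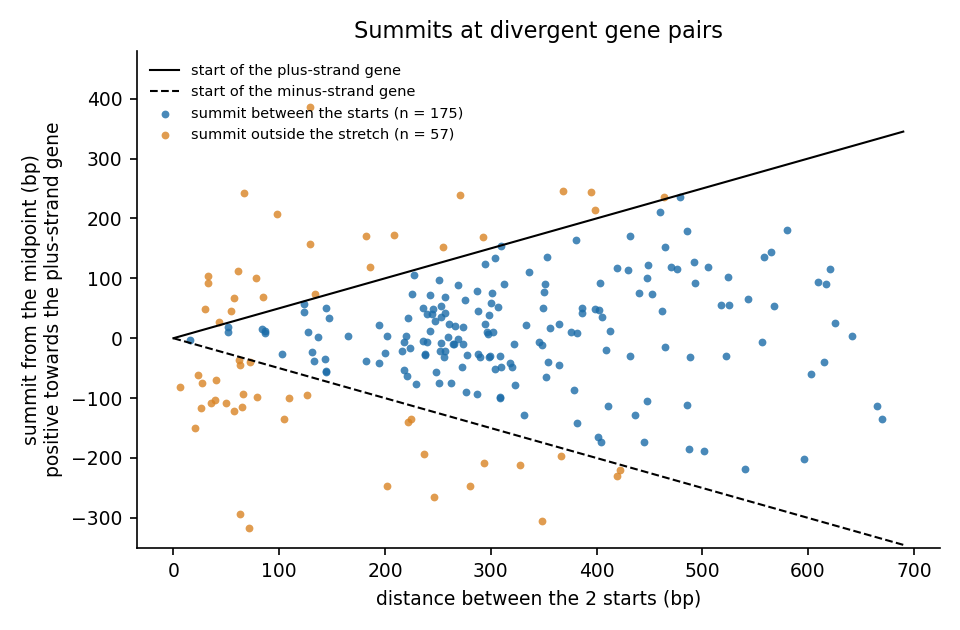
Position of the summit relative to the midpoint of the 2 starts (y axis, bp, positive towards the plus-strand gene) against the distance between the starts (x axis, bp) for the 232 divergent 2-gene summits; the lines are the starts. The 175 summits between the lines lie around the midpoint, on which the rule by construction centres the allowed sequence. Of the 57 outside, 37 belong to pairs with starts under 200 bp apart.

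At 14 of the 16 summits of genes with an identical start, the summit was upstream of it. The highest were at CG46429 and Sesn, the sestrin gene of the stress and nutrient response (chr2R:23713548-23713755, signal value 484.8, summit 226 bp upstream, ranks 112, 237 and 105), and at CG44286 and CG8788 (386.2, 241 bp upstream). CG46456 and lama, a phospholipase-like gene first described in the brain lamina, had 385.5 (126 bp upstream), and CG42353 and CG42354 had 248.8 (277 bp upstream). RpS27A, which encodes a ubiquitin and ribosomal protein fusion, shares its start with Ip259, and this summit was 72 bp upstream with 224.0.

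Where 5′ ends overlap, the summit lay upstream of one start and inside the other gene at 7 of 11 summits. Adck1, a mitochondrial kinase-like gene, and CG4741 had the highest value (461.7), with the summit 117 bp upstream of Adck1 and 258 bp inside CG4741. Cyt-c-d, a cytochrome c gene, and CG31808 had 439.8, with the summit 379 bp inside Cyt-c-d. CG5846 and CG4658 had 240.0, and CG3770 and CG15861 198.0. The 11 values ran from 138.0 to 461.7.

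Each of the 12 summits with 3 or more genes included genes with an identical start. The summit with 10 genes lies at mod(mdg4), a chromatin gene whose 3′ exons are encoded as separate units and joined by trans-splicing, here annotated as genes such as pre-mod(mdg4)-E (chr3R:21365263-21365678, signal value 330.3). It ranked 222 and 381 in replicates 2 and 3 and had no region in replicate 1. The summit with 5 genes joined CG42379, CG42380, CG42381 and PIG-M, a gene of GPI anchor synthesis, at 1 start with NC2alpha, a gene for a transcription repressor that binds the TATA-binding protein complex (245.3, ranks 437 and 885 in replicates 1 and 3, with no region in replicate 2). The 4 genes of the other are tal-1A, tal-2A, tal-3A and tal-AA, which encode the small peptides of the polycistronic tarsal-less transcript (163.6).

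The 9 summits with 3 genes had signal values from 137.1 to 259.1. The highest was at Pax, the paxillin gene, with Alp12 and CG13085, and the next at CG7071, Muted and JMJD6 (211.4). They included Tom7, a gene of the mitochondrial import pore, with CG33199 and CG8229 (190.7), Tnpo-SR, a nuclear import receptor gene, with HemK2 and Snapin (188.1), and mAcon1, the mitochondrial aconitase gene, with CG43345 and CG43346 (188.1). Mkp and Mtch with CG34140 had 198.8, fand with CG45088 and CG6191 had 179.2, and Unc50 with CG11755 and CG8043 had 156.3. The lowest was at usp, which encodes the partner of the ecdysone receptor, with Actn, the alpha-actinin gene, and CG4313.

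In 9 gene pairs 2 summits met the rule. In 8 of them the summits were 199 to 354 bp apart, among them NaCP60E–RpL41, Fur1–Vps33B and eIF3h–senju, and at Vha100-2 and Vti1b, which use several starts, they were 2017 bp apart. Neighbouring summits can fall on 1 region of a replicate, which was so for 4 members in replicate 1, 10 in replicate 2 and 10 in replicate 3. Their ranks are then not separate measurements. A non-coding gene also started within 500 bp of 7 members (2.57%).

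Replicates differed in how they ranked shared summits. The median rank of shared summits was 1073, 1059 and 1269.5 in replicates 1, 2 and 3, against 1140, 1263.5 and 1130.5 for single-gene promoter summits. The difference, shared minus single-gene, was -67, -204.5 and 139 ranks, where a negative value means that shared summits stood higher. Its mean was -44.2 ± 173 (SD, n = 3), with p = 0.75 in an exact sign-flip permutation test over replicates, 2-sided, whose smallest possible p is 0.25. Replicate 3 thus went against the other 2, and without replicate 2 the mean was 36.

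A replicate was said to hold a summit's region when one of its 2415 best-ranked regions overlapped it by at least 1 bp. Replicate 1 held 79.4% of shared and 82.5% of single-gene summits, replicate 2 90.4% and 81.4%, and replicate 3 76.1% and 83.8%. The differences were -3.09, 9.05 and -7.74 percentage points, with a mean of -0.593 ± 8.67 (SD, n = 3, exact sign-flip permutation p = 1, 2-sided). The mean was -5.41 without replicate 2 and 2.98 without replicate 3. All 3 replicates held 160 of the shared summits (58.8%, 95% Wilson interval 52.9 to 64.5), near the 59.1% of all arm regions and the 60.8% of single-gene summits. A further 77 were held by 2 and 35 by 1. Replicate 2 alone held 23 (8.46%, 5.70 to 12.4) of the shared and 24 (2.94%, 1.98 to 4.33) of the single-gene summits. This is 1 of several patterns of holding and describes a single replicate. Its intervals count regions, which are not replicates, and no test was made on it.

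The replicate lists themselves were read in the same way. Among the best-ranked arm regions of each replicate, shared promoter summits made up 11.1% (95% Wilson interval 9.93 to 12.5) in replicate 1, 14.2% (12.9 to 15.7) in replicate 2 and 11.6% (10.3 to 12.9) in replicate 3. Of promoter summits they were 23.2%, 31.0% and 24.3%. The class of a member was also read from the replicate's own summit. As the replicate region was picked for holding the pooled summit or lying up to 200 bp away, small shifts were largely built in. The summit of the replicate's own region lay a median of 13.5, 20.5 and 17 bp from the pooled summit, and it was still near several genes for 254 of 256, 268 of 270 and 266 of 270 members with a region.

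**Figure D3:**
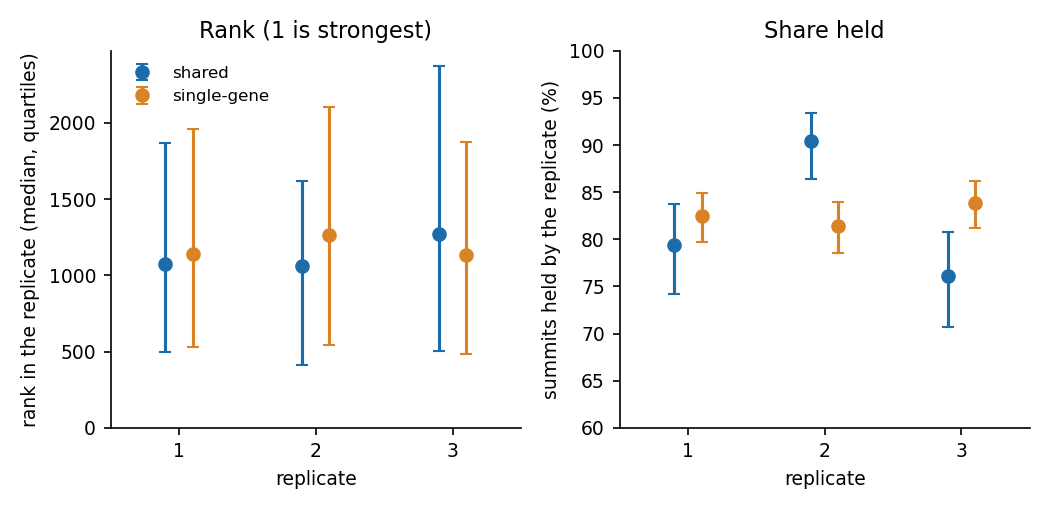
Rank in each replicate (left, y axis, median with quartiles, 1 is the strongest region) and share of summits held by its best-ranked regions (right, y axis from 60%, percent with 95% Wilson intervals) for 272 shared and 817 single-gene promoter summits. Replicate 2 holds 90.4% of shared summits, and replicate 3 76.1%.

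The 4 members with the widest spread of ranks were weak in the pooled list. CG8067 and Ctf4, a DNA replication gene, ranked 1064, 21292 and 2988 (135.6 in the pooled list), and uno and Tmem63 ranked 1482, 20798 and 1409. The second summit of NaCP60E, a sodium channel gene, and RpL41 ranked 2728, 150 and 177, where replicates 2 and 3 used the region that also holds the first summit. JMJD7 and CG10738 ranked 16486, 1151 and 1658. In 2 of these 4 pairs the low standing was in replicate 2 and in the other 2 in replicate 1.

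In the full pooled list of 30000 regions, shared summits were concentrated among high ranks. They were 17.1% (95% Wilson interval 13.1 to 21.9) of arm regions ranked 1 to 300, 11.0% of those ranked 301 to 1000, 10.4% of 1001 to 2415 and 9.44% (8.37 to 10.6) of 2416 to 5000, which lie outside the thresholded list. The share was 4.48% for ranks 5001 to 10000 and 1.30% (1.10 to 1.54) for 20001 to 30000. Single-gene promoter summits declined as well, from 39.1% to 11.7%. Of promoter summits, the shared part went from 30.4% (23.7 to 37.9) in the first class to 9.99% (8.48 to 11.7) in the last.

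**Figure D4:**
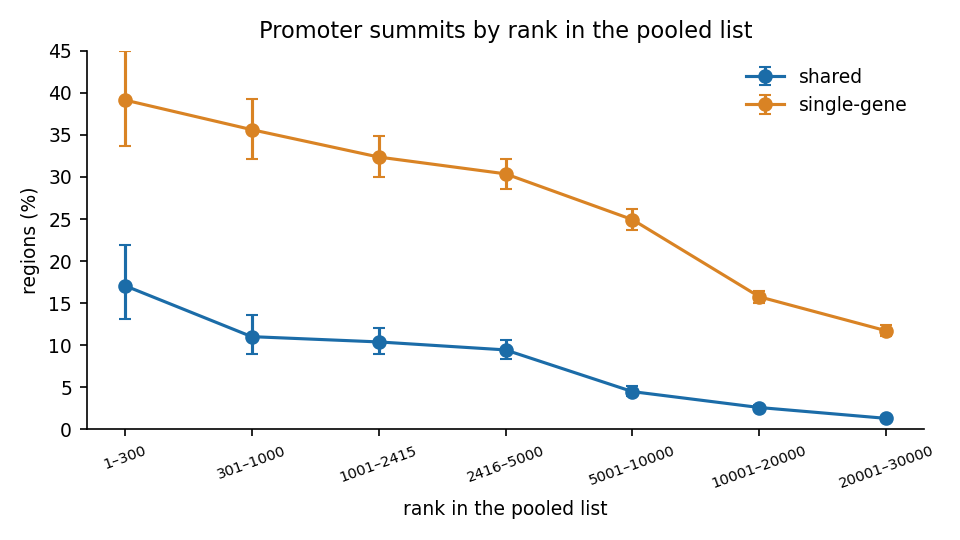
Share of arm regions of the pooled list (y axis, percent) whose summit is near starts of several genes (shared) or of 1 gene (single-gene), by rank class (x axis); bars are 95% Wilson intervals. The shared part goes from 17.1% in ranks 1 to 300 to 1.30% in ranks 20001 to 30000.

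Ribosomal protein genes were the largest listed group among the members. Of 86 genes for cytoplasmic ribosomal proteins, 55 had a close start of another gene and 23 of these (41.8%, 95% Wilson interval 29.7 to 55.0) had a shared summit, against 9.16% of all genes with a close start. A further 25 had a single-gene summit only. The highest values were at RpL41 with NaCP60E (425.1, ranks 243, 150 and 177), RpL14 with Nelf-E, a gene for a subunit of the negative elongation factor (406.3, ranks 209, 255 and 196), RpL7 with Ripalpha (397.8, ranks 402, 185 and 128), and RpS27 with Nup37, a nuclear pore gene (375.4, ranks 181 and 224 in replicates 2 and 3, none in replicate 1). As ribosomal protein genes were known from earlier results of these data to carry many promoter summits, this count is no independent evidence.

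At these pairs the summit mostly lay on the side of the ribosomal protein gene. Of 22 divergent pairs it was nearer the ribosomal protein start in 20, at a median of 53 bp against 182.5 bp from the partner, and upstream of the ribosomal protein start in 19. These counts take the strongest summit of each pair. They leave out the second summit of NaCP60E and RpL41, which went the other way. It lay outside the stretch, 170 bp from the midpoint towards NaCP60E. In the printed Dref–RpL13 stretch, the summit was 26 bp upstream of RpL13 and 58 bp upstream of Dref, the gene for the factor that binds the DRE (303.7, ranks 529, 552 and 388). In that of RpS27–Nup37 it was 16 bp upstream of RpS27 and 128 bp upstream of Nup37. At RpL28 and the translation initiation factor gene eIF1 the summit was nearer the partner, 27 bp upstream of eIF1. All 3 replicates held 18 (75%) of the 24 shared summits that involve a ribosomal protein gene and 57.3% of the other 248. Replicate 1 held 83.3% and 79.0%, replicate 2 95.8% and 89.9%, and replicate 3 91.7% and 74.6%. The median signal values of these 24 and 248 summits were 250.9 and 197.8. Among single-gene summits, all 3 replicates held 69.2% of those at ribosomal protein genes and 60.6% of the others. By replicate, the shares were 80.8% and 82.6% in replicate 1, 92.3% and 81.0% in replicate 2, and 88.5% and 83.7% in replicate 3. Replicates 2 and 3 thus had the same direction as at shared summits, and replicate 1 the opposite one.

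Mitochondrial ribosomal protein genes had shared summits at 9 of 61 genes with a close start (14.8%, 95% Wilson interval 7.96 to 25.7), an interval that includes the 9.16% of all such genes. Besides mRpS23 and mRpS10 they included mRpL23 with CG9004 (529.3) and mRpS2 with Mon1 (242.0). One of them, mRpL2, shared its summit with FoxK, a forkhead gene (181.3). Autophagy genes had them at 4 of 16, all divergent. These were Atg17 with Xe7 (296.4), Atg2 with CG12093 (246.8), Atg18a with ERR, the estrogen-related receptor gene (236.8), and Atg12 with CG5645 (174.1). The share of 25% has an interval of 10.2 to 49.5 and rests on 4 genes, of which 2 were left with a promoter window of 250 bp.

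The next 4 lists had shares whose 95% Wilson intervals include the 9.16% of all genes with a close start. Genes of nuclear transport had shared summits at 5 of 28 (17.9%, 7.88 to 35.6), with Nup37, Kap-alpha3, an importin gene (296.8), Nup98-96 (206.6) and Tnpo-SR the highest. Chromatin genes had them at 6 of 42 (14.3%, 6.72 to 27.8). The highest were brm, the ATPase gene of the Brahma complex, with Arl1 (333.0), Gcn5, an acetyltransferase gene, with ver (254.8), Ino80 with Aptx (192.2) and E(z), the Polycomb methyltransferase gene, with Cnep1r2 (172.7). Of genes for interband, insulator and promoter factors, Chro, Dref and pzg (192.3) were 3 of 19 (15.8%, 5.52 to 37.6). Polymerase and general transcription factor genes had 6 of 62 (9.68%, 4.51 to 19.5), with Ssl1, MED30 (297.0), Polr3E (250.6) and Polr2B (212.1) highest.

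The list of ecdysone response genes concerns the steroid that times the prepupal stage, and it also holds genes of the receptor machinery, such as usp and tai. Only 6 of the 30 have a close start of another protein-coding gene, and 4 of these (66.7%, 95% Wilson interval 30 to 90.3) had a shared summit, against 9.16% of all genes with a close start. The share rests on 4 genes of a list chosen with earlier results of these data known, so it is no independent evidence. They were Hr96 with EMC6 (221.2), tai, a coactivator gene of the ecdysone receptor, with CG9586 (186.5), Hr3 with CG46321 at an identical start (159.7), and usp (137.1). Hr96 lay above the median signal value of all shared summits and the other 3 below it, and 2 of the 4 were held by all 3 replicates. Hr3 ranked 1046, 2400 and 5720, and usp 7145, 2155 and 1724.

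In 10 further lists the shares of genes with a close start ran from 4.76% to 12%, each on 1 to 4 genes and with an interval that includes 9.16%. They were vesicle traffic (4 of 65, Vps33B with Fur1 highest at 421.5, then Sec61alpha, Vps50 and Sec63), respiratory chain (4 of 53, ND-ASHI with the fumarase gene Fum1 at 448.1, then Cyt-c-d, ND-MWFE and COX5A) and translation factors (3 of 30, eIF4EHP, eIF3h and eIF1). Aminoacyl-tRNA synthetases (3 of 25) had GluProRS, IleRS and AspRS, and cell cycle genes (3 of 50) SMC6, Cdc7 and Cdk12. DNA replication and repair (2 of 35) had mus301 and Rad51D, proteasome subunits (2 of 26) Rpn5 and Rpn13, and mRNA processing (2 of 42) CstF64 and Sf3b6. Chaperones (1 of 20) had DnaJ-H, which overlaps Sirt1, and mitochondrial import (1 of 9) had Tom7. None of 57 chemosensory receptor genes with a close start had one, which allows up to 5.26%, and none of 15 such cuticle protein genes, which allows up to 20%.

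Sequence around shared summits was compared with other promoter sequence over 201 bp windows, with matches on either strand. The core GAGAG of sites for GAGA factor was found at 20.2% (95% Wilson interval 15.9 to 25.4) of shared and 43.0% (39.6 to 46.4) of single-gene summits. It was present at 22.5% of all gene starts and at 14.1% (12.7 to 15.6) of midpoints of close divergent pairs without a summit. CGATA, a core site of the insulator protein BEAF-32 that is contained in the DRE, was at 36.4% (30.9 to 42.3) of shared and 26.6% (23.6 to 29.7) of single-gene summits, at 39.4% of starts and at 41.3% of divergent midpoints without a summit. For both motifs the intervals of the 2 summit classes do not overlap, and no test over regions was made.

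The full DRE was at 5.88% (3.65 to 9.34) of shared summits, 2.94% (1.98 to 4.33) of single-gene summits, 7.84% of starts and 8.83% of divergent midpoints without a summit. GGTCACAC, the core of the site of the promoter factor M1BP, was at 4.78%, 1.96%, 6.76% and 5.65%. The loose forkhead consensus was at 54.8% (48.8 to 60.6) of shared summits, 48.2% (44.8 to 51.7) of single-gene summits, 43.6% of starts and 57.3% (55.3 to 59.3) of divergent midpoints without a summit, and the strict form at 14%, 12%, 12.1% and 15.6%. Every strict match is also a loose match, so the shares of both forms are not separate measurements. Within 50 bp of the summit the loose form was at 31.6% of shared and 30.6% of single-gene summits. E-boxes, CANNTG, were at 61.8% and 60.6% of the 2 summit classes. The windows differed in base composition, with a mean GC content of 36.3% ± 7.59 (SD over 272 shared windows), 40.5% ± 8.99 (SD over 817 single-gene windows), 41.6% at starts and 34.0% at divergent midpoints without a summit, and the part of composition in these shares was not tested.

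**Figure D5:**
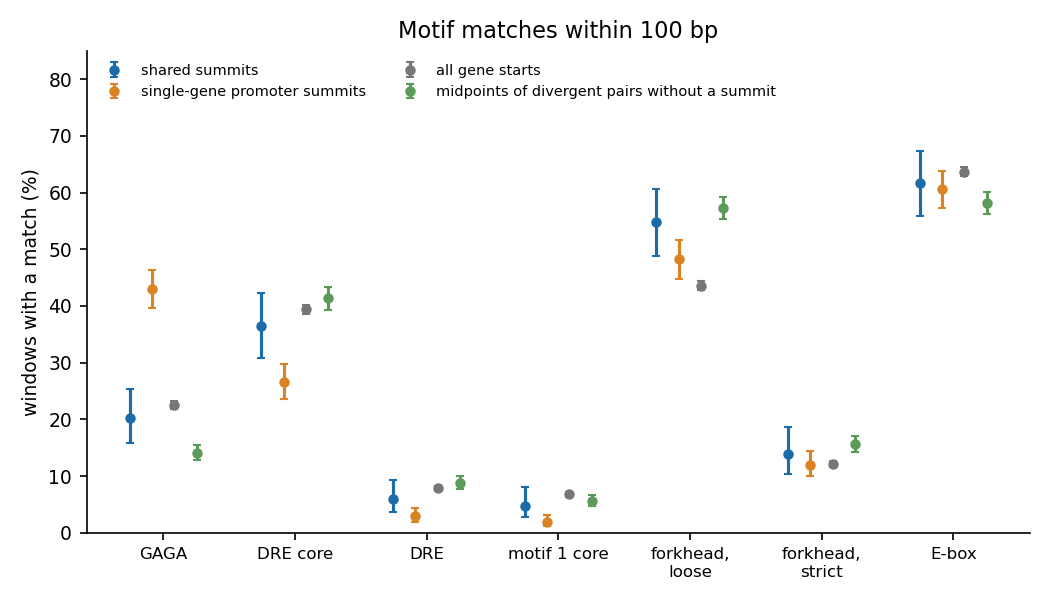
Share of 201 bp windows (y axis, percent) with at least 1 match on either strand to each motif (x axis; DRE core is CGATA) at shared summits, single-gene promoter summits, all gene starts and midpoints of close divergent pairs without a summit; bars are 95% Wilson intervals. GAGAG is at 20.2% of shared and 43.0% of single-gene summits, and the loose forkhead form at 54.8% and 48.2%.

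At the edge of the rule the farther start lay 500 bp from the summit at CG14968 and ZnT63C, a zinc transporter gene (338.4), 488 bp at Vha100-2, a proton pump subunit gene, and Vti1b, a SNARE gene (197.4), and 479 bp at tank and CG12194 (641.1). Just outside were summits at CRAT, a carnitine acetyltransferase gene, with CG42564 at 514 bp (162.1), and at CG13605 with Root, the rootletin gene, at 520 bp (177.5).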

How the data were processed

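Per the labels, chromatin of 3 biological replicates of 1 line was sheared by sonication to 200 to 800 bp. The authors deposited region lists with a signal value, a score of unstated scale, and a −log10 q-value that was not used. Lists were made from reads and 1 shared control file, and replicate lists hold 30000, 24326 and 22698 regions, including background regions, per the file sheets. The thresholded list equals the 2415 strongest regions of the pooled list. The sources used here do not name the aligner or peak caller or give read depths, so no interval for depth is given. The 20 mitochondrial regions and the lists in the other genome build were left out.

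Summits (1-based, dm6) were compared with starts of all protein-coding transcripts of Ensembl release 115 (BDGP 6.54), using python 3.11.15, numpy 2.4.6, pandas 2.3.3 and scipy 1.17.1. Each gene was placed by its start nearest the summit. A member's rank in a replicate is that of the region that holds its summit, or failing that of the closest one up to 200 bp away. Intervals are 95% Wilson intervals over regions or genes and cover counting error only. The only tests are exact sign-flip permutations over replicates. The 12 motifs, 20 gene lists and members were chosen with earlier results of these data known. The text names the 20 strongest members, the 4 strongest of each layout, members with 3 or more genes, up to 4 genes per list, and the lowest, most discordant and edge members; a few of these are not reported here. Planted summits in the real annotation were used to check classes and layouts.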

Additional observations from a re-analysis of the deposited data

How the results depend on the processing

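The number of shared summits was 174 with a promoter window of 250 bp, 151 in the better-ranked 1207 regions and 160 among regions held by all 3 replicates. To leave out 1 replicate, only regions of the thresholded list that both other replicates held were kept. This gave 174 to 194 shared summits, the lowest without replicate 2. The regions themselves still came from the reads of all 3 replicates. Of promoter summits, shared ones were 20.6% at 250 bp, 30.2% at 1000 bp and 30.3% with 1 start per gene, the setting in which 66.0% of divergent summits lay between the starts. The share of close divergent pairs with a summit was 5.93% with the better-ranked 1207 regions, 5.24% with regions held by all 3 replicates and 5.73% to 7.03% without 1 replicate, since these settings keep fewer regions. These settings also favour stronger regions by construction. With the first 2 of them, median signal values rose to 273.5 and 255.5 for shared and 273.6 and 251.0 for single-gene summits. Without 1 replicate they rose to 237.6 to 248.7 and 231.7 to 234.2. The divergent share of 2-gene summits stayed within its main interval in every setting.

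For the differences within replicates, leaving out 1 replicate meant taking the mean over the other 2. The mean rank difference was then -135.8 to 36, the positive value without replicate 2. The mean difference in the share held was 1.17 percentage points with the 1207 best-ranked regions of each replicate and -5.41 to 2.98 without 1 replicate, positive without replicate 1 or 3. The GAGAG difference between shared and single-gene summits was -14.8 points within 50 bp and -33.0 within 200 bp, that of the loose forkhead form 1.02 within 50 bp, that of CGATA 17.6 and of DRE 8.71 within 200 bp. The count of shared members changed by more than 1.5 times with the window in 10 of the 20 lists, and that of ribosomal proteins did not. The cause of the other moves was not tested. No pairing of samples across groups was possible because all samples belong to 1 group. The sign-flip tests compare the 2 classes of summit within each replicate. Leaving out the pairs of the mod(mdg4) locus was chosen after seeing the data.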
